A study of Mus musculus with 6 samples.

Results

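The interferon-inducible GTPases of the Gbp and Irg families were examined in RNA-seq data of MLO-Y4 cells exposed to low-intensity pulsed ultrasound (LIPUS). The members are 10 genes chosen by name, 5 guanylate-binding protein genes (Gbp2, Gbp2b, Gbp3, Gbp5 and Gbp7) and 5 immunity-related GTPase genes (Igtp, Irgm1, Irgm2, Iigp1 and Ifi47), out of 53797 genes listed in the deposited table. All 10 are listed above 0 in both groups. Cuffdiff, the program that made the table, tested 8 of them, and Gbp5 and Ifi47 carry the status without a test.

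MLO-Y4 is an established mouse line with features of osteocytes, the mechanosensitive cells embedded in bone. LIPUS-treated cells (3 samples) received pulsed ultrasound of 1.5 MHz at 30 mW/cm2 for 20 min, control cells (3 samples) were untreated, and RNA was taken 30 min after the stimulation. The descriptions name no gene deletion and no added interferon for either group. The level of a gene is its FPKM, its sequenced fragments scaled to the length of its exons and to the size of the library, and the table holds 1 FPKM per group, pooled by the authors over the libraries of that group. No SD or replicate range can therefore be given for any value below, and no test was run. The authors' own test results in the table were not used. The table holds no read counts from which the depth behind a value could be read, and a ratio describes the pooled libraries. The study describes a control culture that lay apart from the others and notes that treated and control cells shared a culture plate. The pooled values do not allow that culture to be left out.

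The osteocyte genes Sost, Mepe, Fgf23 and Dkk1 are listed at 0 in both groups, which without read counts does not show that they are absent, whereas the osteocyte and osteoblast genes Pdpn, Gja1, Col1a1 and Spp1 are abundant, with Control values of 295, 176, 891 and 4514 FPKM. Of the 9 tested markers of the lineage, Runx2 (24.4 FPKM in Control and 14.8 FPKM with LIPUS) and Alpl (293 and 190 FPKM) had the lowest ratios, and Dmp1 (3.04 and 7.65 FPKM) and Pdpn the highest. Phex and Bglap are listed at 0 in Control.

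Gbp and Irg proteins are large GTPases that cells make in quantity after interferon, above all interferon gamma. They bind guanine nucleotides, assemble on membranes that enclose bacteria or parasites, and help to open or mark these compartments. Among the Irg proteins, Irgm1, Irgm2 and Igtp (also called Irgm3) act as regulators that sit on the cell's own membranes, and Iigp1 and Ifi47 belong to the effectors that move onto the pathogen's vacuole. Their promoters are textbook targets of interferon-activated transcription factors, through the gamma-activated site (GAS) and the interferon-stimulated response element (ISRE).

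All 10 genes were lower with LIPUS than in Control. The log2 ratio of LIPUS over Control lay between -1.16 (Gbp7) and -0.55 (Gbp2), with a median of -0.93 over the 10 genes. Summed over the members, the level was 296.1 FPKM in Control and 164.8 FPKM with LIPUS, so that 55.6% of the Control level was left. At a threshold of 1.5-fold, 8 of the 10 genes were lower and 0 were higher. Of the 8145 genes tested by Cuffdiff, 4.71% were at least 1.5-fold lower and 4.70% at least 1.5-fold higher, and their median log2 ratio was 0.0042. Ratios scatter more among genes at low levels. Of the 13892 genes above 0 in both groups, 11.8% were at least 1.5-fold lower, and of the 7696 genes whose Control FPKM lay within the range of the members, 6.78% were. In bulk RNA, a smaller number of cells that express a gene and less RNA of it per cell cannot be told apart.

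**Figure D1:**
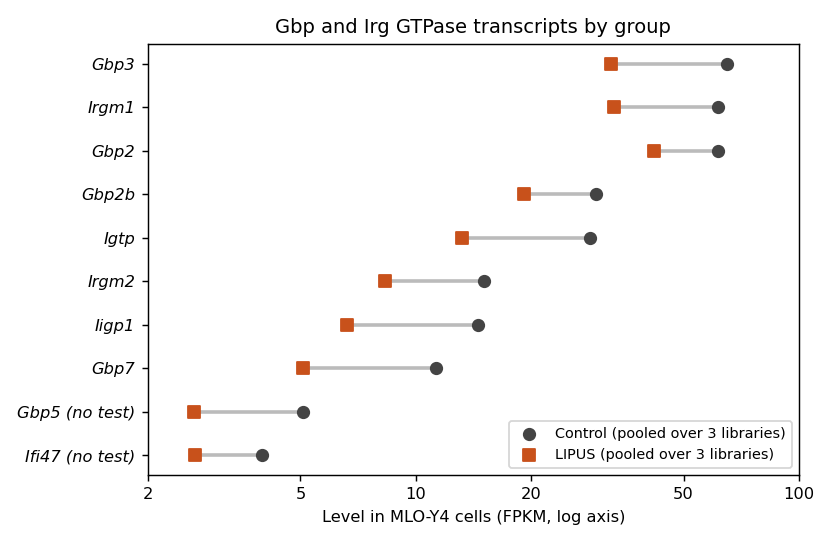
FPKM (log axis) of the 10 members in Control (circles) and LIPUS-treated cells (squares), 1 pooled value per group, ordered by the Control level. Every square lies left of its circle, and the grey line between them is shortest for Ifi47 and Gbp2.

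The Gbp genes are described first. Gbp3 was the most abundant member in Control, with 65.1 FPKM, and 32.4 FPKM with LIPUS. This is a log2 ratio of -1.01, or 2.01-fold lower, and its difference of 32.7 FPKM was the largest among the members. Gbp2, which helps to lyse pathogen vacuoles and to expose bacterial DNA and lipopolysaccharide, was nearly as abundant in Control at 61.4 FPKM, with 41.9 FPKM under LIPUS. Its log2 ratio of -0.55 was the closest to 0 of the 10, at 1.46-fold lower just outside the threshold. Gbp2 was the most abundant member in LIPUS-treated cells, in place of Gbp3.

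Gbp2b, the mouse gene also known as Gbp1, lay at 29.5 FPKM in Control and 19.2 FPKM with LIPUS. It was 1.54-fold lower (log2 ratio -0.62), just inside the threshold. Gbp7 had 11.3 FPKM in Control and 5.07 FPKM with LIPUS, the lowest ratio of all members at 2.23-fold lower. Gbp5, known for promoting assembly of the NLRP3 inflammasome, was among the least abundant members with 5.08 FPKM in Control and 2.63 FPKM with LIPUS. Its log2 ratio of -0.95 comes from a gene that received no test. The Gbp genes summed to 172.3 FPKM in Control and 101.2 FPKM with LIPUS.

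Among the regulatory Irg genes, Irgm1, which guards autophagy and is needed for resistance to many intracellular pathogens, was the most abundant with 61.7 FPKM in Control and 32.8 FPKM with LIPUS (log2 ratio -0.91). Igtp had 28.5 FPKM in Control and 13.2 FPKM with LIPUS (log2 ratio -1.12). Irgm2 had 15.1 FPKM in Control and 8.30 FPKM with LIPUS (log2 ratio -0.86). These 3 genes were thus within 0.26 of each other on the log2 scale although their Control levels spanned 4.09-fold. Of the effectors, Iigp1, which oligomerises on the vacuole of Toxoplasma, was listed at 14.6 FPKM in Control and 6.61 FPKM with LIPUS, or 2.21-fold lower. Ifi47 had the lowest level of the members in Control, 3.98 FPKM, against 2.66 FPKM with LIPUS, and received no test. At 1.497-fold lower it missed the threshold by a margin that centring the ratios on the median of the tested genes removes. The Irg genes summed to 123.8 FPKM in Control and 63.6 FPKM with LIPUS.

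The log2 ratio of these sums was -0.77 for the Gbp genes and -0.96 for the Irg genes. The single ratios of the families overlapped, from -1.16 to -0.55 for Gbp and from -1.14 to -0.58 for Irg, and no replicate spread is at hand to compare them. Gbp2, Gbp3 and Irgm1 made up 63.5% of the members' summed level in Control and 61.6% of the summed difference. Ranked from the lowest log2 ratio among the 8145 tested genes, Gbp7 stood at 46, Iigp1 at 49, Igtp at 56, Gbp3 at 77, Irgm1 at 108, Irgm2 at 133, Gbp2b at 340 and Gbp2 at 445. Of the tested genes, 77 were at least 2-fold lower, and 4 of these were members. By Control level, Gbp3 exceeded about 81.8% of the tested genes and Gbp7 about 22.4%, so the tested members were spread over the expression range.

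**Figure D2:**
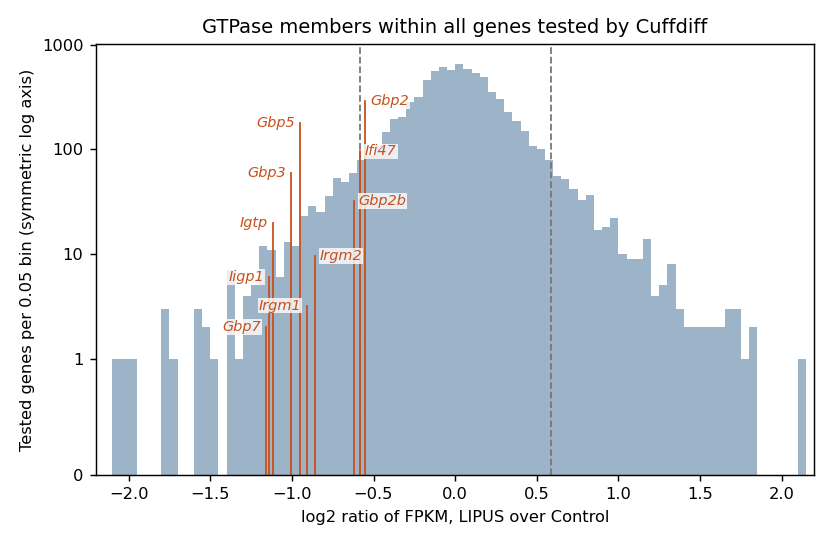
Histogram of the log2 ratio of LIPUS over Control for the genes tested by Cuffdiff (bars, symmetric log axis), with the 10 members marked by stems whose height has no meaning and dashed lines at 1.5-fold. The members lie between -1.16 and -0.55, on the left flank of a distribution whose median is 0.0042.

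The members lie in few places of the GRCm38 genome, by GENCODE M21. The Gbp genes form a tandem cluster on the plus strand of chromosome 3, with Gbp5 from 142493978 to 142522344, Gbp7 from 142530342 to 142550149, Gbp3 from 142560026 to 142573209, Gbp2b from 142594847 to 142619179 and Gbp2 from 142620602 to 142638008. On chromosome 11, Irgm1 spans 48861968 to 48871683 on the minus strand and Ifi47 spans 49076587 to 49096974 on the plus strand. Igtp (58199556 to 58207591) and Irgm2 (58199618 to 58222782) overlap on the plus strand of the same chromosome, and Iigp1 lies on chromosome 18 from 60376027 to 60392634. All 10 are annotated as protein-coding.

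Reads of such relatives can be hard to assign. Igtp and Irgm2 share 162 annotated exonic bases, 8.01% of the exonic bases of Igtp, and 11.8% of the different 50-base stretches in Igtp transcripts also occur in transcripts of another gene. This share was 12.7% for Gbp7, mostly with the annotated gene Gm43802, 7.77% for Irgm2, 3.75% for Gbp3, and below that for the other members. How the counting split such reads is not given in the sources used here. In this respect alone, the separate values of Igtp and Irgm2 and the value of Gbp7 are less certain than those of Irgm1, at 0.310%, or Gbp5, at 1.44%. Gbp5 is itself at a low level and received no test.

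The genes beside the members were read for comparison. Of 25 tested genes within 500 kb of a member, by the positions in the table, 1 was at least 1.5-fold lower and 0 were higher. These counts stand against 4.71% and 4.70% of all tested genes, and the median log2 ratio of the 25 was -0.0069. The lower tested gene was Hand1, a transcription factor gene, with 18.5 FPKM in Control and 10.3 FPKM with LIPUS (log2 ratio -0.85). Genes without a test are left out of these counts. Of the 31 untested neighbours above 0 in a group, related GTPases among them, 20 were lower with LIPUS by any amount and 11 higher, mostly at low levels. Of all genes above 0 in both groups, 50.7% were lower by any amount. Beside the Gbp cluster, Kyat3, an aminotransferase gene, was at 4.01 FPKM in Control and 2.04 FPKM with LIPUS (-0.97). Gm43802, which lies within Gbp7 and shares sequence with it, was at 5.37 and 0.821 FPKM (-2.71). Beyond Kyat3, the tested Gtf2b, a general transcription factor gene, had a log2 ratio of 0.03, and Pkn2, a kinase gene, one of -0.33. These 4 genes were chosen after their values were seen.

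**Figure D3:**
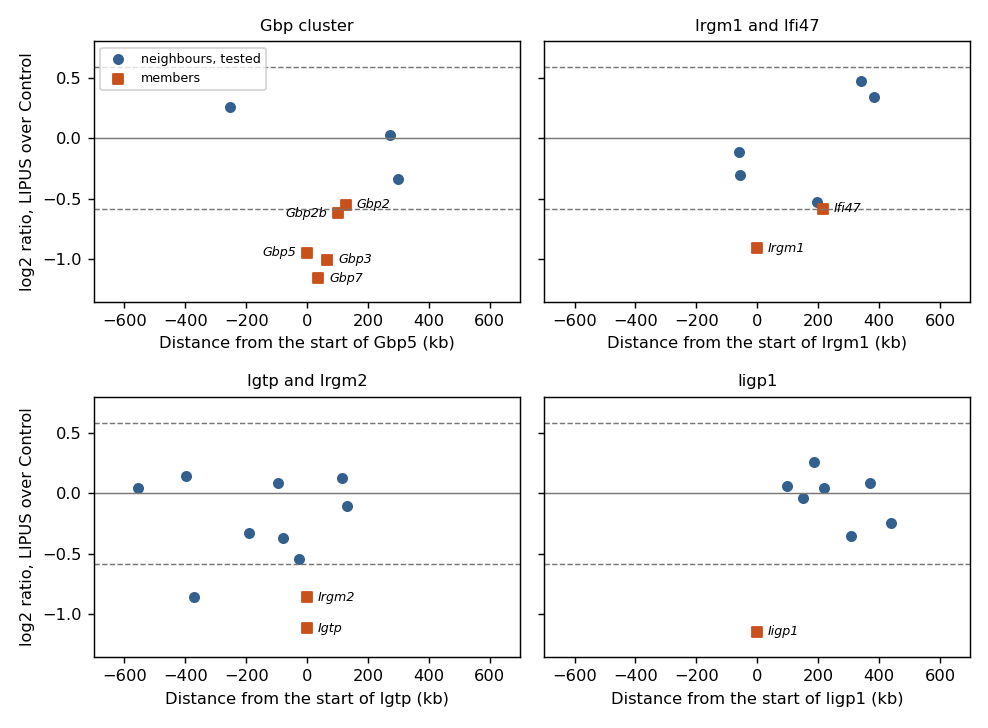
Log2 ratio of LIPUS over Control against the distance, in kb, of each gene's lowest coordinate from that of the named member, at 4 loci, for members (squares) and tested neighbours (circles), with dashed lines at 1.5-fold. Drawn are tested genes within 500 kb of a member whose lowest coordinate lies within 650 kb of that of the named member, which leaves out Bmpr1b. Members lie between -1.16 and -0.55, and the single tested neighbour beyond the lower dashed line is Hand1 at -0.85.

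Promoters of the members were read for the motifs named above, because the genes were lower together. RefSeq promoter windows of GRCm38.p6, from 250 bases before to 50 bases after the most upstream start, were matched by symbol for 9 members, all but Iigp1. The ISRE core was searched as GAAANNGAAA on both strands, and the GAS core as TTCNNNGAA, which reads alike on both strands. At least 1 ISRE core was found in 8 of the 9 windows, against 3.49% of 27025 first-start windows of all genes, and a GAS core in 4 of 9, against 8.42%. All 4 windows with a GAS core (Gbp5, Gbp7, Igtp and Irgm2) also held an ISRE core, a combination found in 0.511% of all windows. The windows of related genes are not independent, since the stretches of Igtp and Irgm2 are nearly identical, so these counts cannot be read as separate cases. The window of Ifi47 held neither run of letters, which says nothing about the factors that act on it.

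The stretches around the matches are shown for 6 members to compare their spacing, 5′ to 3′ on the strand of the gene, with the letters of the motif matches in capitals. The positions are chr3:142620589-142620628 for Gbp2, chr3:142594695-142594734 for Gbp2b, chr3:142559984-142560029 for Gbp3, chr3:142530215-142530307 for Gbp7, chr11:58199496-58199546 for Igtp and chr11:58214887-58214937 for Irgm2, all on the plus strand.
Gbp2: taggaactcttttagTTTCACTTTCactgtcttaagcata
Gbp2b: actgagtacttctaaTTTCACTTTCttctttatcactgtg
Gbp3: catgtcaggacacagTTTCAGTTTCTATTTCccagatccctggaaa
Gbp7: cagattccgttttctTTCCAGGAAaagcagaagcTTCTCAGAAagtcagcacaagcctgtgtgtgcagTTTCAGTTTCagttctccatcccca
Igtp: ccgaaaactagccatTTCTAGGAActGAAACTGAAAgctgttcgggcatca
Irgm2: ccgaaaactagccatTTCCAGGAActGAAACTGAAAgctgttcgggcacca

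In the Gbp genes shown the ISRE core reads on the opposite strand, with TTTC on either side of 2 free bases, and in Igtp and Irgm2 on the strand of the gene. In Gbp3, 2 ISRE cores overlap, from base -45 to -30. These positions count from the RefSeq start, which can differ from that of GENCODE. The match of Gbp2 lies from -59 to -50, and that of Gbp2b from -137 to -128. By GENCODE, 27 of the 40 bases printed for Gbp2 and all 45 bases around the matches of Irgm1 lie within annotated exons of a member, and the GENCODE genes of Gbp5 and Irgm2 start upstream of their matches. The matches of these 4 members are thus not before every annotated start. Gbp7 has GAS cores from -106 to -98 and from -87 to -79 and an ISRE core from -53 to -44. The stretches of Igtp and Irgm2 are identical in 49 of 51 bases, each with a GAS core before an ISRE core and only the bases ct between them. The members with a GAS core had log2 ratios of -1.16 (Gbp7), -1.12 (Igtp), -0.95 (Gbp5) and -0.86 (Irgm2), and those with an ISRE core alone -1.01 (Gbp3), -0.91 (Irgm1), -0.62 (Gbp2b) and -0.55 (Gbp2), so the ranges overlapped.

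**Figure D4:**
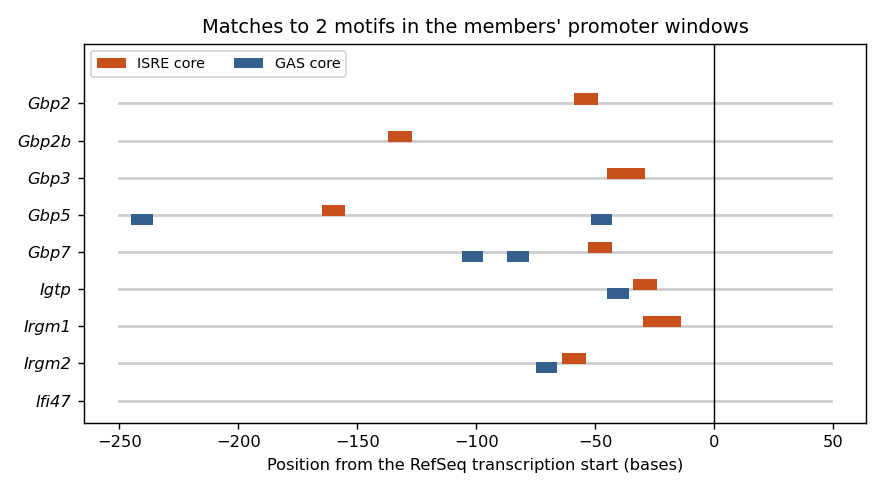
Positions of ISRE core and GAS core matches (bars) in the 300-base promoter windows of 9 members, in bases from the RefSeq start. Every match lies before the RefSeq start, and Ifi47 has none.

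Other GTPases of the same families were mostly listed at low levels. Of 28 related GTPase genes in the list, 27 were found and 22 were above 0 in a group, but Cuffdiff tested only 4. Of these, 1 was at least 1.5-fold lower and 0 were higher, against 4.71% and 4.70% of all tested genes. The median log2 ratio of the 4 was -0.19. Mx2, a dynamin-like antiviral GTPase, was 10.5 FPKM in Control and 4.55 FPKM with LIPUS (log2 ratio -1.21). Tgtp2, an Irg gene beside Ifi47, was 11.9 and 8.24 FPKM (-0.53). The other tested genes were Atl2 (0.22) and Atl3 (0.15), atlastins that shape the endoplasmic reticulum and are not known as interferon targets.

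Of the 18 untested relatives above 0 in a group, 13 were lower and 5 higher with LIPUS by any amount, where 50.7% of all genes above 0 in both groups were lower by any amount. The Gbp genes of the second mouse cluster, on chromosome 5, were on the lower side, with Gbp6 at 3.44 FPKM in Control and 1.51 FPKM with LIPUS, Gbp9 at 1.63 and 0.462, Gbp10 at 1.39 and 0.194, and Gbp4 at 0.712 and 0.40. In the table Gbp4, Gbp8 and Gbp9 share 1 locus, as do Gbp6 and Gbp10, so reads of these neighbours may be hard to split. Gbp11 was at 0.162 FPKM in Control and is listed at 0 with LIPUS, and Gbp8 is listed at 0 in both groups. Among further Irg genes, the table gives Gm4951 at 3.61 and 1.92 FPKM, F830016B08Rik at 1.40 and 0.896, Tgtp1 at 0.924 and 0.328, 9930111J21Rik2 at 0.924 and 0.558, 9930111J21Rik1 at 0.203 and 0.292, and Gm12185 at 0.0476 and 0.0847. Gm12250 was at 1.26 FPKM in Control and is listed at 0 with LIPUS. Mx1 was at 1.23 and 0.251 FPKM, Atl1 at 1.51 and 1.35, and Irgq, a divergent Irg relative, at 2.08 and 2.27. Gvin1, at 0.0218 FPKM in Control, is listed at 0 with LIPUS, whereas Gm4070 (0.0253 FPKM) and Gm5431 (0.156 FPKM) are above 0 with LIPUS alone. Over all relatives with an FPKM of at least 1 in a group, the median log2 ratio was -0.91, close to that of the members, but most of these values are near the lower end of the table.

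The genes that carry the interferon signal did not share a direction. Of 18 tested signalling genes, 3 were at least 1.5-fold lower and 2 higher, against 4.71% and 4.70% of all tested genes. The median log2 ratio of the 18 was -0.06. Among the lower genes, Stat2, which acts in the type I response, was 23.2 FPKM in Control and 12.6 FPKM with LIPUS (log2 ratio -0.88), and Usp18, an inhibitor of the type I receptor that is itself an interferon target, was 85.9 and 43.5 FPKM (-0.98). Irf1, an interferon-induced factor that binds Gbp promoters, was 18.6 and 12.5 FPKM (-0.57), and Irf9, a DNA-binding partner of Stat2, was 24.7 and 23.1 FPKM (-0.10). The log2 ratios of the other factors were -0.56 for Irf7, -0.43 for Irf2 and 0.53 for Irf3.

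The receptor chains had smaller ratios. Log2 ratios were 0.15 for Ifngr1 and -0.06 for Ifngr2, the chains of the interferon gamma receptor, and -0.06 for Ifnar1 and 0.26 for Ifnar2, those of the type I receptor. Jak1 and Jak2, the kinases on the gamma receptor, had ratios of 0.29 and -0.25. The negative regulators Socs1 (6.71 and 11.04 FPKM, log2 ratio 0.72) and Socs3 (73.2 and 119.3 FPKM, 0.71) were higher with LIPUS. Of the ligands, Ifng is listed at 0 in both groups, and Ifnb1 was at 0.646 FPKM in Control and 0.367 FPKM with LIPUS, without a test.

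Genes known as interferon targets were compared as lists, side by side with the members. Of 26 tested antiviral genes of the type I response, 21 were at least 1.5-fold lower and 0 higher, and the median log2 ratio over them was -0.91, against -0.96 over the 8 tested members. Ifit3b (-1.79) and Ifit3 (-1.56) had the lowest ratios there, and Isg20 (-0.28) and Eif2ak2 (-0.44) the highest. Of 17 tested genes typical of the interferon gamma response, mainly antigen presentation genes, 1 was at least 1.5-fold lower and 1 higher, with a median of -0.09. Beside both lists, 4.71% of all tested genes were at least 1.5-fold lower and 4.70% higher. Tapbp, which loads peptides onto class I molecules, was 159 and 101 FPKM (log2 ratio -0.65). H2-D1, a class I heavy chain, was 889 and 1248 FPKM (0.49). The lists overlap, so their counts are not independent. Irf1, Socs1, Nlrc5 and Ciita are in this list and in the signalling list, Usp18, Stat2 and Irf7 in the signalling and type I lists, and Mx1 and Mx2 among the related GTPases and the type I genes. Nlrc5, the activator of class I genes, had a ratio of 0.17. The class II genes H2-Aa, H2-Ab1 and H2-Eb1 and their activator Ciita are listed at 0 in both groups. No replicate values were at hand to test whether the members differ from either list.

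**Figure D5:**
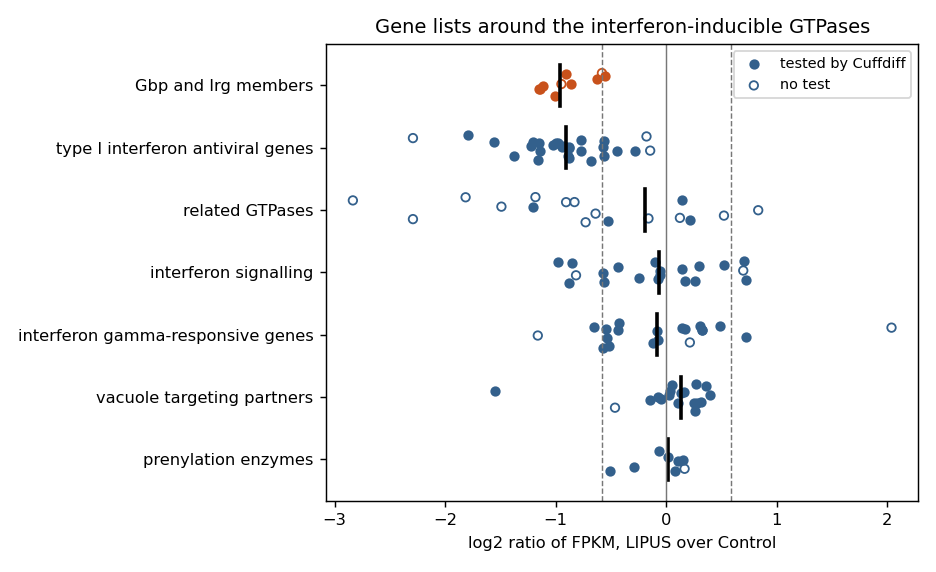
Log2 ratio of LIPUS over Control for the members and 6 related lists, with filled points for genes tested by Cuffdiff, open points for genes without a test, black bars at the median of the tested genes and dashed lines at 1.5-fold. The members and the type I antiviral genes lie mostly left of the lower dashed line, while the medians of the other lists drawn lie between -0.19 (related GTPases, 4 tested genes) and 0.13. The inflammasome list, with 2 tested genes and a median of -0.26, is not drawn.

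Macrophages and other leukocytes express many of these GTPases, so their markers were read as well. Of 12 leukocyte markers, 8 are listed at 0 in both groups, among them the defining Ptprc, Adgre1, Itgam and Tyrobp. The 4 above 0 were Cd14 (8.19 FPKM in Control and 10.6 FPKM with LIPUS), Cd68 (5.32 and 1.72), Lyz2 (2.01 and 0.189) and Csf1r (0.236 and 0.233). The summed level of the list was 15.8 FPKM in Control and 12.8 FPKM with LIPUS. Of the 7 endothelial markers Pecam1 alone was above 0, at 0.496 FPKM in Control, and all 5 epithelial markers are listed at 0.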

How the data were processed

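The series holds RNA-seq of 3 LIPUS and 3 control samples, grouped by their labels. The submitters' processing notes name bcl2fastq 1.8.3, Trimmomatic 0.36, TopHat2 2.1.0, Bowtie2 2.2.6.0, Cuffdiff and Cufflinks 2.1.1 (the methods name a later Cufflinks version), with GRCm38 and Ensembl transcripts. The authors deposited 1 FPKM per gene and group, pooled over the libraries. The table also holds the authors' log2 fold changes, test statistics, p-values, q-values and significance calls, none of which were used. The status column alone was read, to note which genes Cuffdiff tested.

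The log2 ratio of LIPUS over Control was computed without a pseudocount, so that a low gene is not pulled towards 0. No test was run, since single libraries are not in the table used here. A gene counted as lower or higher at 1.5-fold. The shares over all tested genes, 4.71% lower and 4.70% higher, stand beside most such counts and apply to the other counts at 1.5-fold as well. The members and the gene lists were chosen with earlier results of these data known. Named are all members, all related GTPases above 0, receptor, Jak, Stat and Irf genes, of each list the 2 lowest and 2 highest ratios among tested genes, and neighbours past the threshold. Other genes of the lists, the markers among them, were named after their values were seen. A gene of the signalling list is not reported here. Gene positions came from GENCODE M21 and promoter sequences from RefSeq (GRCm38.p6). The shared 50-base stretches were counted over all GENCODE transcripts. Python 3.11.15, numpy 2.4.6, pandas 2.3.3 and matplotlib 3.10.9 were used.

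Alternatives were pseudocounts of 1 and 0.1, centring on the median of the tested genes, thresholds of 1.25-fold and 2-fold, other filters on FPKM and other distances.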

Additional observations from a re-analysis of the deposited data

How the results depend on the processing

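No paired analysis was possible because the table holds 1 pooled value per group, and for the same reason no replicate could be left out in turn. A value counted as unmoved within 0.1 on the log2 scale and a count within 1.5 times, since no replicate spread was at hand. Under the pseudocounts of 1 and 0.1 and under centring, the members' log2 ratios lay between -1.16 and -0.44. A pseudocount cannot turn the sign of a ratio and centring shifts it by 0.0042, so their common direction is no sign of stability. The pseudocount of 1 moved Gbp5 to -0.74, Gbp7 to -1.02, Iigp1 to -1.03 and Ifi47 to -0.44. The number of members at least 1.5-fold lower stayed between 7 and 9 with centring, pseudocounts or other filters, was 10 at a lower threshold and 4 at 2-fold. The share of all genes that were lower was 13.4% at that lower threshold, 0.945% at 2-fold, 9.59% among genes with an FPKM of at least 1 in a group and 11.8% among genes above 0 in both groups. The related GTPases, with a median of -0.19 over the 4 tested genes, had -0.91 over those with an FPKM of at least 1 and -0.73 over all above 0 in both groups, which include more genes. Within 100 kb of a member, 0 of 10 tested neighbours were at least 1.5-fold lower. The comparison with Control FPKM in the range of the members and that restricted to tested members were chosen after seeing the data. Of 110 alternative values, 98 were unmoved. Centring could not move a log2 value past 0.1 and the pseudocount of 0.1 hardly could, so this tally is no measure of stability.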

Other observations

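The partners through which Gbp and Irg proteins act were read from lists as well. Of 17 tested genes for the targeting of vacuoles, 1 was at least 1.5-fold lower and 0 higher, against 4.71% and 4.70% of all tested genes. The median log2 ratio of the 17 was 0.13. The lower gene was Trim21, a ubiquitin ligase that is itself an interferon target, with 10.5 FPKM in Control and 3.59 FPKM with LIPUS (log2 ratio -1.55). Among the ubiquitin-like proteins of autophagy that load the GTPases onto vacuoles, Gabarapl2 was 24.2 FPKM in Control and 31.0 FPKM with LIPUS (0.36), and Map1lc3b was 44.5 and 40.3 FPKM (-0.14). Rab5a, a small GTPase of early endosomes, was 20.4 and 26.8 FPKM (0.39). Atg5 (0.03), Atg3 (-0.05), Atg16l1 (-0.07) and Atg7 (0.13), which attach these proteins to membranes, had ratios close to 0 and were picked out by role after their values were seen.

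Prenylation anchors some Gbp proteins in membranes. Of 7 tested genes for prenylation and its later steps, 0 passed 1.5-fold in either direction, with Rce1 (log2 ratio -0.51) and Fntb (-0.29) lowest and Fnta (0.15) and Gdi2 (0.11) highest. Of 12 inflammasome genes, 6 were above 0 in a group. Nlrp3, Nlrc4, Nlrp1a, Nlrp1b, Mefv and Il1b are listed at 0 in both groups. Without a test, Aim2 was at 0.0984 FPKM in Control and is listed at 0 with LIPUS, Casp1 was at 1.17 and 0.645 FPKM, Pycard at 1.22 and 1.33, and Gsdmd at 3.43 and 4.62. Cuffdiff tested Casp4, the sensor of cytosolic lipopolysaccharide, at 16.2 and 14.3 FPKM (log2 ratio -0.18), and Il18 at 8.70 and 6.81 FPKM (-0.35).

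The ISRE core was also read across the other tested genes, leaving out the members, as a description with no test. Of 203 such genes with a match in the promoter window, 13.3% were at least 1.5-fold lower and 5.42% higher with LIPUS, against 4.18% and 4.23% of 6149 genes without one. Only the members were left out. The 203 genes thus include type I antiviral genes already described as lower, and these shares are no separate observation. For the GAS core, 4.87% of 411 genes with a match and 4.44% of 5941 without one were lower. Windows with an ISRE core, found in 3.49% of all windows, belonged to 13 of the 21 type I antiviral genes in the promoter table, to 6 of 12 related GTPases, to 4 of 18 interferon gamma-responsive genes, to 3 of 18 signalling genes and to 1 of 15 vacuole genes. Windows with a GAS core, found in 8.42% of all windows, belonged to 5, 4, 3, 7 and 3 genes of these lists in the same order. The 11 inflammasome and 5 prenylation genes in the promoter table had neither.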
